A study of Mus musculus with 12 samples.

Results

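The follicular Treg programme was followed here through 10 genes, Bcl6, Cxcr5, Tox, Tox2, Sh2d1a, Slamf6, Slamf1, Ascl2, Il21 and Il6st. They were taken by symbol from the probe annotation of a mouse gene array, which gave 11 probe sets for them out of 23521 probe sets (22180 genes) that carry exactly 1 symbol. Slamf6 had 2 probe sets and each other gene had 1. The study sorted regulatory T cells (Treg) by flow cytometry from spleens of DEREG mice with ovalbumin-induced allergic airways disease and ran 12 arrays, 4 biological replicates in each of 3 groups. The iTreg group came from ovalbumin-exposed mice given diphtheria toxin (DTx, 40 ng/g) to deplete endogenous Treg and then intravenous immunoglobulin (IVIg, pooled IgG) at 2 g/kg. The e_iTreg group came from ovalbumin-exposed mice that had IVIg at the same dose but kept their own Treg, since DTx was omitted, and its label calls it a mix of endogenous and induced cells. The eTreg group came from ovalbumin-exposed mice that had human serum albumin (HSA) in place of IVIg, with DTx omitted according to the series design.

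All groups share the DEREG transgene, in which Foxp3 regulatory sequence drives the receptor for diphtheria toxin together with a green fluorescent reporter. The growth protocol, worded alike for every sample, puts DTx ahead of either infusion, and the groups are used as the series design gives them. A group that had both DTx and HSA is not among the samples used, so effects of IVIg and of DTx cannot be told apart between iTreg and eTreg. In the same way, cells induced by IVIg, cells that escaped depletion and cells that grew back cannot be told apart within iTreg. The gate of the sort and the sex and age of the animals were not given in the labels.

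Follicular regulatory T cells are Treg that enter B cell follicles and restrain germinal centre responses. They share with follicular helper T cells a programme built around the transcriptional repressor BCL6. CXCR5 takes such cells into the follicle along its ligand CXCL13, receptors of the SLAM family signal through the adaptor SAP (encoded by Sh2d1a) during contact with B cells, and cytokines that signal through gp130 (encoded by Il6st), such as IL-6, induce BCL6 through STAT3. BLIMP-1 (encoded by Prdm1) and BCL6 repress each other.

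The upstream sequence of Bcl6 is shown because Bcl6 had the largest difference of the 10 genes and is known as a target of STAT proteins. RefSeq windows of the GRCm38.p6 build were held for 7 of the 10 genes, and the 250 bases before the start of transcription were searched on both strands for the STAT motif TTCNNNGAA, which reads the same on both. The Bcl6 start at the upstream position held 1 match and the Bcl6 start further into the gene held 3, shown in capitals. The Il6st window is set beside them as a member of the gp130 pathway with no match to these letters.
Bcl6, chr16:23988853-23989102, minus strand: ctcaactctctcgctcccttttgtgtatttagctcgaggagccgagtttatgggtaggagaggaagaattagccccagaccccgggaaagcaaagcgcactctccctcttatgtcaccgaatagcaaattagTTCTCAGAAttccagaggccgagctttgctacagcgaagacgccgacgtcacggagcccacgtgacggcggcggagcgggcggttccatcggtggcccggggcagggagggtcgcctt
Bcl6, chr16:23981284-23981533, minus strand: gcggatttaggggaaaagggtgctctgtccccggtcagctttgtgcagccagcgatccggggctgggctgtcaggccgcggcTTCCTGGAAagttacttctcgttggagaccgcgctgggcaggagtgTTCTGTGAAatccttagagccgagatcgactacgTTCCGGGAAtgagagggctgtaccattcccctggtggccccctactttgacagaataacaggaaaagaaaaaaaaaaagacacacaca
Il6st, chr13:112463820-112464069, plus strand: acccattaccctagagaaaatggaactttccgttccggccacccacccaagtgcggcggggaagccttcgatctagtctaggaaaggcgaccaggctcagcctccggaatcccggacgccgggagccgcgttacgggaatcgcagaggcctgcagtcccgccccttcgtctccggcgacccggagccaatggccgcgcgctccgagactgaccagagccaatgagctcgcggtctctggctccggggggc

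The motif was present in 7.02% of 32851 windows of the same length, and 3 or more matches were present in 0.0274% (9 windows). The matches in the second Bcl6 window began 168, 122 and 88 bases before the start, and the match in the first began 118 bases before it. Of the 12 windows of members, those 2 held the motif. The E-box CAGCTG, read alike on both strands and present in 13.0% of windows, and the forkhead motif GTAAACA (3.17%, both strands) were in none of the 12, and neither overlaps the STAT motif. These matches describe the letters of the windows and say nothing of binding in these cells.

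Values below are log2 expression values per probe set, which the authors made with RMA, and differences are log2 differences ± SE from a limma fit of all 12 arrays. A probe set passed where its p, adjusted over all 23521 probe sets, was under 0.05. Foxp3 was at 12.17 ± 0.25 in iTreg, 12.30 ± 0.21 in e_iTreg and 12.46 ± 0.09 in eTreg (SD, n = 4 each), and the T cell markers Cd3e and Cd4 did not pass in any comparison. B cell markers (14 measured) averaged 7.38 to 7.82 in the iTreg arrays, 6.59 to 8.18 in e_iTreg and 6.56 to 8.24 in eTreg, with 3 arrays lowest, eTreg replicates 3 and 4 and e_iTreg replicate 4 (called B-cell-marker-poor below). Cell cycle genes (14 measured) averaged 9.59 to 10.4 in iTreg, 7.32 to 9.11 in e_iTreg and 7.23 to 9.04 in eTreg, so that iTreg did not overlap the other groups. Being iTreg and having a high cell cycle level therefore cannot be told apart here. Fits below with the cell cycle mean as a covariate rest on slopes within groups, carried beyond the values that the groups share. Plasma cell markers (9 measured) stood at 9.26 in iTreg replicate 4 and at 7.40 to 7.76 in the other iTreg arrays, at 6.997 to 7.41 in e_iTreg and at 6.91 to 7.31 in eTreg. Myeloid markers averaged 8.02 in iTreg replicate 4 and 7.12 to 7.27 in the other iTreg arrays, 6.60 to 7.19 in e_iTreg and 6.63 to 7.15 in eTreg, and their part in the results below was not tested. Of 10 measured, Itgam and Cst3 were higher in iTreg against both other groups, and Siglech was lower in iTreg against e_iTreg (-0.45 ± 0.12). Xist minus the mean of the Y-linked genes was -3.26 in e_iTreg replicate 4 and 2.14 to 6.42 in the other 11 arrays, so that this array stood apart, and the count of members that passed in iTreg against e_iTreg is also given without it. None of the 5 measured germinal centre B cell markers passed in any comparison. None of the 8 measured CD8 T and NK cell markers and none of the 14 B cell markers passed in any comparison. Of 8 Treg identity genes, 2 fell in iTreg against both other groups, Ikzf4, the gene of EOS (-1.04 ± 0.14 against eTreg), and Lrrc32, the gene of GARP (-0.80 ± 0.18). Of all probe sets, 9.99% passed in iTreg against eTreg and 11.2% in iTreg against e_iTreg.

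The first question was how Treg sorted after depletion and IVIg differed from endogenous Treg under albumin. In iTreg, Bcl6 and the gp130 chain Il6st were lower and the SAP adaptor Sh2d1a was higher, while the follicular homing receptor Cxcr5, Tox, Tox2, Slamf1, Slamf6, Ascl2 and Il21 did not pass. So 3 of 11 probe sets passed, 2 lower and 1 higher, against 9.99% of all probe sets in either direction (4.63% lower and 5.36% higher). Many of all probe sets are dim, while most members are not. In a fit of the 11760 probe sets with a mean above the median of all, 2674 passed, a larger share, and 3 of the 9 member probe sets kept did. An unadjusted p under 0.05 was reached by 7 of the 11 and by 21.7% of all probe sets. The 4 iTreg arrays did not overlap the 4 eTreg arrays for 2 of the 11, 1 higher and 1 lower, and for 14.7% of all probe sets. The median difference of the 11 was -0.20, beside -0.01 over all probe sets. In bulk samples such as these, fewer cells of a type and less RNA per cell cannot be told apart.

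**Figure D1:**
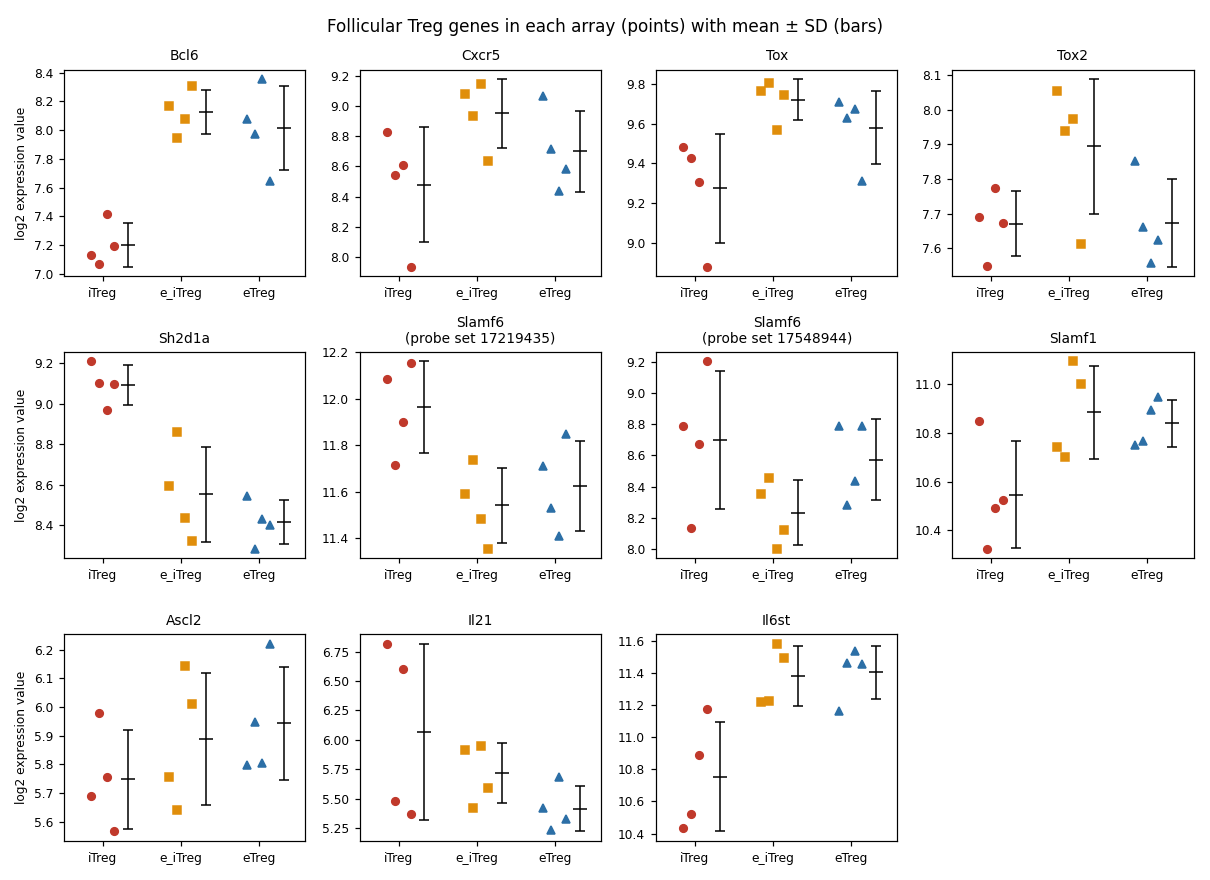
Log2 expression value (vertical axis) of each probe set of the 10 genes in the 12 arrays, by group, with mean ± SD beside the points (n = 4 arrays). Bcl6 lies at 7.07 to 7.42 in iTreg, below every array of e_iTreg and eTreg, Sh2d1a lies above them, and Il21 splits within iTreg.

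Bcl6, the repressor that defines the follicular fate, read 7.13, 7.07, 7.42 and 7.20 in iTreg replicates 1 to 4. It read 8.17, 7.94, 8.08 and 8.31 in e_iTreg and 8.08, 7.97, 8.36 and 7.65 in eTreg. Every iTreg array was below every array of the other groups, and the lowest of these was eTreg replicate 4. The difference between iTreg and eTreg was -0.81 ± 0.14 (95% interval -1.10 to -0.52, adjusted p = 0.00238), a level 1.75-fold lower in iTreg. No overlap with iTreg on the lower side was seen for 7.82% of all probe sets against eTreg.

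Bcl6 is also a gene of germinal centre B cells, and its values were read beside the B cell markers. These are a separate list from the germinal centre B cell markers, and germinal centre B cells as a source of Bcl6 were not tested. The highest Bcl6 value in eTreg, 8.36, was in replicate 3, the array lowest in B cell markers (6.56). The lowest Bcl6 value in eTreg, 7.65, was in replicate 4, the next lowest of eTreg in these markers (6.74). The iTreg arrays lay inside the range of the other groups in B cell markers. With the mean of the B cell markers as a covariate the difference was -0.80 ± 0.14 (adjusted p = 0.00228), and without the 3 arrays poorest in them it was -0.82 ± 0.13 (adjusted p = 0.0195). With the mean of the cell cycle genes as a covariate it was -0.84 ± 0.245 and did not pass (adjusted p = 0.309), in a fit in which 11 of all probe sets passed.

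Tox, an HMG-box transcription factor needed for the development of CD4 T cells, read 9.48, 9.43, 9.31 and 8.88 in iTreg. In e_iTreg it read 9.76, 9.81, 9.57 and 9.74, and in eTreg 9.71, 9.63, 9.67 and 9.31. The lowest eTreg array reached the iTreg values, and the difference of -0.31 ± 0.13 did not pass (adjusted p = 0.188). It was -0.17 without iTreg replicate 4, and -0.67 ± 0.21 with the cell cycle mean as a covariate (adjusted p = 0.334), and passed in neither setting. Tox2, its relative and known to promote the follicular helper fate, ranged from 7.55 to 7.77 in iTreg, from 7.61 to 8.05 in e_iTreg and from 7.56 to 7.85 in eTreg. The Tox2 difference between iTreg and eTreg was -0.00246 with a 95% interval of -0.24 to 0.23, and it was -0.29 ± 0.17 with that covariate (adjusted p = 0.665).

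Ascl2, a basic helix-loop-helix factor that induces Cxcr5 in helper T cells, was dim, between 5.57 and 5.98 in iTreg, 5.64 and 6.14 in e_iTreg and 5.80 and 6.22 in eTreg. The groups overlapped, and the difference between iTreg and eTreg was -0.20 ± 0.13 (adjusted p = 0.471). Ascl2 and Il21 were the 2 members with a mean below log2 6 over the 12 arrays, and both filters on dim probe sets that were tried left them out.

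Cxcr5, the receptor for CXCL13, read 8.83, 8.54, 8.61 and 7.94 in iTreg. It read 9.08, 8.94, 9.15 and 8.64 in e_iTreg and 9.06, 8.71, 8.44 and 8.58 in eTreg. Its lowest value of all was in iTreg replicate 4, the array highest in plasma cell markers, and the other iTreg arrays lay inside the eTreg range. The difference between iTreg and eTreg was -0.22 ± 0.18 (95% interval -0.61 to 0.17, adjusted p = 0.569). It was -0.04 without iTreg replicate 4 and -0.41 without the 3 B-cell-marker-poor arrays. With the cell cycle mean as a covariate, in which iTreg does not overlap the other groups, it was -0.77 ± 0.27 (adjusted p = 0.409). It passed in none of these settings. B cells also carry CXCR5, and within eTreg the arrays with more B cell marker signal, replicates 1 and 2 (8.24 and 8.02), had the higher Cxcr5 values. Within e_iTreg the lowest Cxcr5 value was in replicate 4, lowest in B cell markers (6.59). The highest there was in replicate 3 (markers 7.67), which was below replicates 1 and 2 in markers (7.91 and 8.18). The part of B cell transcripts in Cxcr5 was not tested beyond the covariate fit, in which the difference was -0.28 ± 0.16 (adjusted p = 0.360).

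Sh2d1a, the gene of the SAP adaptor that joins SLAM receptors to the kinase FYN, read 9.21, 9.10, 8.97 and 9.10 in iTreg. It read 8.59, 8.86, 8.44 and 8.32 in e_iTreg and 8.54, 8.28, 8.43 and 8.40 in eTreg. Every iTreg array was above every other array, and the nearest was e_iTreg replicate 2, which was also the highest of its group in cell cycle genes (9.11). Within iTreg the order was not shared. Replicates 1 and 3, highest and lowest there in Sh2d1a, both had a cell cycle mean of 10.37, and replicate 4 had the lowest (9.59). These values were picked after they were seen. Sh2d1a rose in iTreg by 0.68 ± 0.12 over eTreg (adjusted p = 0.00239), which is 1.60-fold, and no overlap on the higher side was seen for 6.9% of all probe sets. With the cell cycle mean as a covariate its difference was 0.33 ± 0.17 (adjusted p = 0.618).

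Slamf6, a self-binding SLAM receptor that recruits SAP, was measured by 2 probe sets. The first (17219435) read 12.08, 11.71, 11.90 and 12.16 in iTreg, 11.59, 11.74, 11.48 and 11.35 in e_iTreg, and 11.71, 11.53, 11.41 and 11.85 in eTreg. The second (17548944) ranged from 8.13 to 9.20 in iTreg, from 7.999 to 8.45 in e_iTreg and from 8.28 to 8.79 in eTreg. Between iTreg and eTreg neither passed, at 0.34 ± 0.13 (adjusted p = 0.120) and 0.12 ± 0.19 (adjusted p = 0.804), and iTreg replicate 2 was the lowest iTreg array with both.

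Slamf1, another SLAM receptor bound by SAP, read 10.85, 10.32, 10.49 and 10.52 in iTreg. It read 10.74, 10.70, 11.09 and 10.999 in e_iTreg and 10.75, 10.77, 10.89 and 10.95 in eTreg. Of the iTreg arrays, 3 lay below every other array and replicate 1 lay inside the range of the others. The difference between iTreg and eTreg was -0.29 ± 0.12 and did not pass (adjusted p = 0.171). With the cell cycle mean as a covariate it was -0.03 ± 0.20.

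Il6st, the signal-transducing chain gp130 shared by the receptors of IL-6 and IL-27, read 10.44, 10.52, 10.89 and 11.18 in iTreg. It read 11.22, 11.23, 11.58 and 11.497 in e_iTreg and 11.16, 11.47, 11.54 and 11.45 in eTreg. Only iTreg replicate 4 reached the lowest eTreg array. Il6st fell in iTreg by 0.65 ± 0.15 on the log2 scale relative to eTreg (adjusted p = 0.0146), a level 1.57-fold lower. The call was lost without eTreg replicate 3 (adjusted p = 0.0503), without iTreg replicate 1 (adjusted p = 0.0519) and without the 3 B-cell-marker-poor arrays (-0.56, adjusted p = 0.196). With the cell cycle mean as a covariate the difference was -0.17 ± 0.23 (adjusted p = 0.865).

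Il21, the cytokine by which follicular helper cells drive germinal centre B cells, read 6.82, 5.48, 6.60 and 5.37 in iTreg, so that 2 arrays were high and 2 were in the range of the other groups. It lay between 5.42 and 5.95 in e_iTreg and between 5.24 and 5.68 in eTreg. Its difference between iTreg and eTreg was 0.65 ± 0.27 and did not pass (adjusted p = 0.166). Without 1 of the 2 low iTreg arrays it was 0.85 (replicate 2, adjusted p = 0.0674) or 0.88 (replicate 4, adjusted p = 0.0427). Without 1 of the 2 high ones it was 0.40 (replicate 1, adjusted p = 0.425) or 0.47 (replicate 3, adjusted p = 0.384). With the cell cycle mean as a covariate it was 0.37 ± 0.47.

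**Figure D2:**
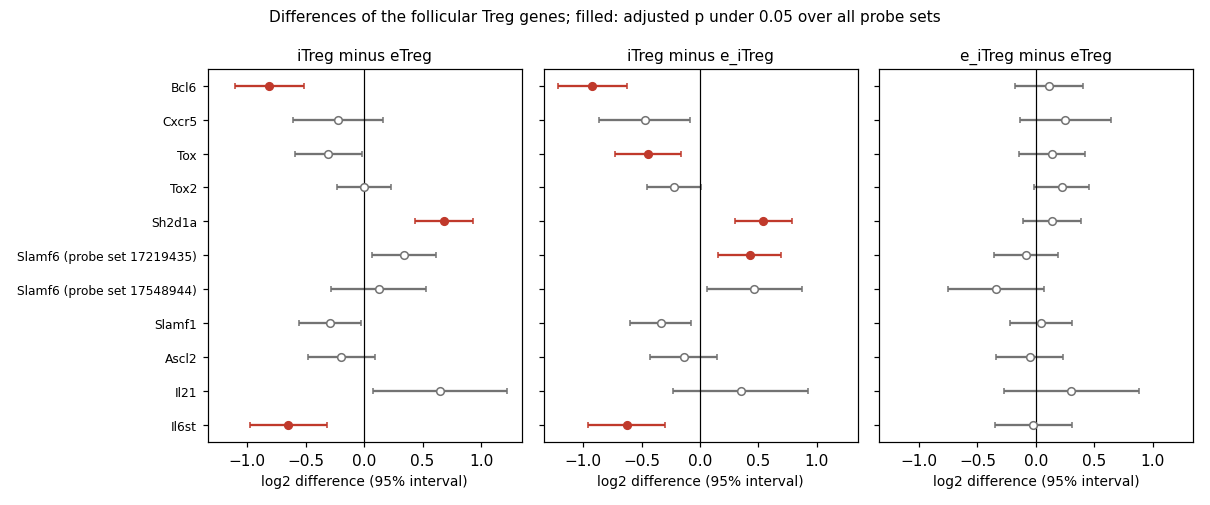
Log2 difference with its 95% interval (horizontal axis) of the 11 probe sets in the 3 comparisons, filled where the adjusted p was under 0.05. Bcl6, Il6st and Sh2d1a are filled against both eTreg and e_iTreg, Tox and the first Slamf6 probe set against e_iTreg alone, and none between e_iTreg and eTreg.

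The second question was what prior depletion changed among IVIg-treated mice, iTreg against e_iTreg. Bcl6, Il6st and Tox were lower and Sh2d1a and Slamf6 were higher in iTreg, 5 of 11 probe sets, against 11.2% of all probe sets (4.75% lower and 6.49% higher). In the fit of the 11760 probe sets with a mean above the median, 2965 passed, again a larger share, and 5 of the 9 member probe sets kept did. An unadjusted p under 0.05 was reached by 8 of the 11 and by 26.3% of all, and the arrays did not overlap for 4 of the 11, against 16.6% of all. The median difference of the 11 was -0.22, beside -0.07 over all probe sets. This comparison shares the iTreg arrays with the first, so that both move together with those arrays.

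Bcl6 fell in iTreg by 0.92 ± 0.14 relative to e_iTreg (adjusted p = 0.00129), a level 1.90-fold lower, and Il6st by 0.63 ± 0.15 (adjusted p = 0.0174). The iTreg arrays lay below all e_iTreg arrays for Bcl6, Il6st and Tox, as they did for 9% of all probe sets. Tox was lower by a difference of -0.45 ± 0.13 (adjusted p = 0.0427). Sh2d1a rose by 0.54 ± 0.12 (adjusted p = 0.00794), without overlap, as 7.57% of all probe sets did. The first Slamf6 probe set rose by 0.42 ± 0.13 (adjusted p = 0.0443) with iTreg replicate 2 inside the e_iTreg range, and the second was at 0.47 ± 0.19 (adjusted p = 0.136).

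The other members did not pass against e_iTreg. Cxcr5 was at -0.47 ± 0.18 (adjusted p = 0.112), Slamf1 at -0.34 ± 0.12 (adjusted p = 0.0947) and Tox2 at -0.22 ± 0.11 (adjusted p = 0.211). Il21 was at 0.35 ± 0.27 and Ascl2 at -0.14 ± 0.13. With the cell cycle mean as a covariate Cxcr5 was at -0.99 ± 0.26 (adjusted p = 0.175) and Tox at -0.79 ± 0.20 (adjusted p = 0.161), and no member passed. The calls for Tox and Slamf6 were close to the threshold and were each lost in 15 of 29 alternative settings, with adjusted p-values up to 0.188 for Tox and up to 0.786 for Slamf6. Among these, Tox was lost without any 1 e_iTreg array, eTreg replicate 2 or 3 or iTreg replicate 3 or 4 (adjusted p up to 0.113), and Slamf6 without e_iTreg replicate 1, 3 or 4, eTreg replicate 1 or 2 or iTreg replicate 1, 3 or 4 (up to 0.127). Il6st was lost without e_iTreg replicate 3 (adjusted p = 0.0588), e_iTreg replicate 4 (0.0537) or iTreg replicate 1 (0.0592). Slamf1 passed without iTreg replicate 1 (-0.44, adjusted p = 0.0392), and the second Slamf6 probe set without iTreg replicate 2 (0.65, adjusted p = 0.022). Without e_iTreg replicate 4, which stood apart in sex-linked genes, 2 members passed, Bcl6 (-0.86, adjusted p = 0.00669) and Sh2d1a (0.46, adjusted p = 0.0314), and 1616 of all probe sets in place of 2643. Bcl6 was the member that passed without the 3 B-cell-marker-poor arrays (-0.86, adjusted p = 0.00476) and with a sex-linked covariate, Xist minus the Y-linked mean (-0.92, adjusted p = 0.0138). In those 2 settings Sh2d1a was at 0.46 (adjusted p = 0.0547) and 0.44 (adjusted p = 0.0728), and Il6st at -0.59 (adjusted p = 0.0771) and -0.68 (adjusted p = 0.0552).

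The third question was what IVIg changed without depletion, e_iTreg against eTreg. None of the 11 probe sets passed limma's test, and none had an unadjusted p under 0.05. Over all probe sets 0% passed and 7.01% had an unadjusted p under 0.05. The arrays of the 2 groups overlapped for all 11, while they did not for 4.29% of all probe sets (2.63% higher and 1.66% lower in e_iTreg). The member differences ran from -0.34 ± 0.19 for the second Slamf6 probe set to 0.30 ± 0.27 for Il21. For Bcl6 the difference was 0.11 with a 95% interval of -0.18 to 0.41, for Cxcr5 0.25 (-0.14 to 0.64), for Sh2d1a 0.14 (-0.11 to 0.38) and for Il6st -0.02 (-0.35 to 0.31). Between iTreg and eTreg the 95% intervals were -1.10 to -0.52 for Bcl6 and -0.98 to -0.32 for Il6st. The Il6st intervals of these comparisons overlap, and both comparisons share the eTreg arrays.

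Genes around the members were read from lists. Beside the counts of each list, 5.36% of all probe sets were called higher and 4.63% lower in iTreg against eTreg. Against e_iTreg these shares were 6.49% and 4.75%. Shares were larger among the 11760 probe sets with a mean above the median. Of these, 1350 were called higher and 1324 lower against eTreg, and 1723 and 1242 against e_iTreg. Among 26 other measured genes of follicular T cells, 5 rose and 1 fell in iTreg relative to eTreg, with a median of 0.02 beside -0.01 over all probe sets. The costimulator Icos, which sustains follicular cells, read 10.29, 9.78, 9.999 and 10.37 in iTreg, 9.38, 9.85, 8.95 and 9.07 in e_iTreg, and 9.52, 9.25, 8.89 and 8.65 in eTreg. All iTreg arrays were above all eTreg arrays, as for 6.9% of all probe sets, while e_iTreg replicate 2 lay inside the iTreg range. Icos rose by 1.03 ± 0.21 (adjusted p = 0.00629), Maf, a transcription factor of IL-21 and IL-4 producing cells, by 1.05 ± 0.23, the cytokine Il4 by 1.04 ± 0.19, Batf, an AP-1 factor, by 0.75 ± 0.17 and Cd40lg, the ligand of CD40 on B cells, by 0.69 ± 0.19. The fall was in Lef1, a TCF family factor that acts upstream of BCL6, by 0.54 ± 0.12.

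The inhibitory receptor Pdcd1, high on follicular helper cells, was at 8.61 ± 0.36 in iTreg and 8.82 ± 0.33 in eTreg (SD, n = 4 each) and did not pass (adjusted p = 0.631). Against e_iTreg, Il4, Icos and Batf of this list rose, by 0.80 ± 0.19, 0.80 ± 0.21 and 0.65 ± 0.17. Il4 was dim, at 5.31 to 5.49 in eTreg, 5.43 to 5.92 in e_iTreg and 5.71 to 6.77 in iTreg. Without the 3 B-cell-marker-poor arrays the list had 1 call against eTreg, Il4 (1.12, adjusted p = 0.0449), while Icos was at 0.72 and Maf at 0.69. Without iTreg replicate 4, 6 passed against eTreg and 1 against e_iTreg.

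**Figure D3:**
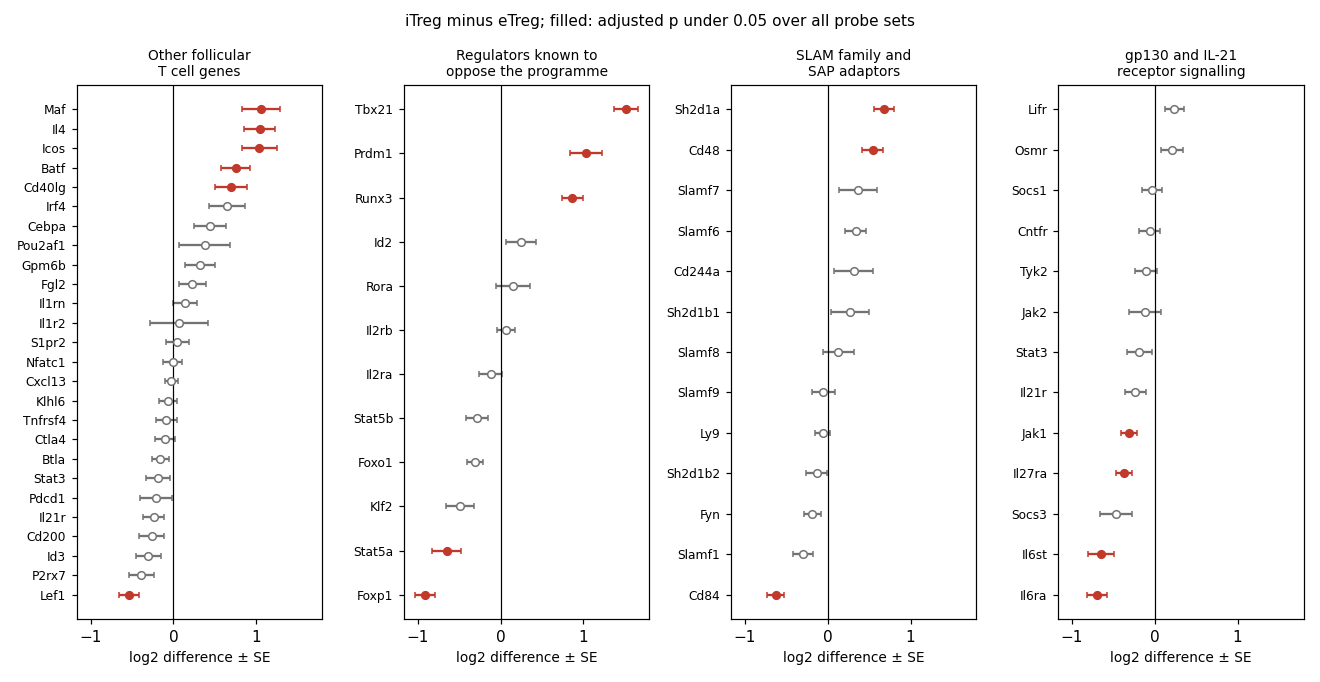
Log2 difference between iTreg and eTreg ± SE (horizontal axis) of the measured genes of 4 lists, filled where the adjusted p was under 0.05. Tbx21, Prdm1 and Runx3 lie to the right and Foxp1 and Stat5a to the left among the regulators, and the filled points of the gp130 list all lie to the left.

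Among 12 regulators known to act against the follicular fate, 3 rose (5.36% of all probe sets) and 2 fell (4.63%) in iTreg relative to eTreg. Prdm1, the gene of BLIMP-1, read 9.08, 8.77, 8.59 and 9.38 in iTreg, 8.07, 8.52, 7.91 and 7.54 in e_iTreg, and 8.08, 7.83, 7.74 and 8.005 in eTreg. Every iTreg array was above all others, as for 6.9% of all probe sets against eTreg and 7.57% against e_iTreg. The difference from eTreg was 1.04 ± 0.19 (adjusted p = 0.0036), and a link between Prdm1 and Bcl6 in these cells was not tested. Prdm1 is also a plasma cell gene, and without iTreg replicate 4 the difference was 0.89 (adjusted p = 0.00964). Tbx21, the gene of the type 1 helper factor T-bet, rose by 1.51 ± 0.15 and Runx3, a Runt family factor, by 0.87 ± 0.13.

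The falls were in Foxp1 (-0.91 ± 0.12), which restrains follicular helper differentiation, and Stat5a (-0.65 ± 0.17), a transducer of IL-2 signals that opposes BCL6. The IL-2 receptor chains Il2ra and Il2rb were at -0.12 and 0.06 and did not pass. Against e_iTreg, Tbx21, Prdm1 and Runx3 rose again and Foxp1 and Foxo1 (-0.32 ± 0.10) fell. The list's median against eTreg was -0.03. Calls of this list and of the migration receptors below without the 3 B-cell-marker-poor arrays are not given here. In that setting 400 of all probe sets passed against eTreg, in place of 2349.

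Of the 6 measured migration receptors that guide cells to other places than the follicle, 1 rose and 2 fell against both eTreg and e_iTreg. Of all probe sets, 9.99% passed against eTreg and 11.2% against e_iTreg. Cxcr3, which guides cells to inflamed tissue, rose by 1.61 ± 0.21 relative to eTreg and 1.45 ± 0.21 relative to e_iTreg. Ccr7, which holds cells in the T cell zone, was at -1.26 ± 0.22 and -1.17 ± 0.22, and Ccr6, the receptor of CCL20, at -0.78 ± 0.13 and -0.74 ± 0.13. The sphingosine receptor S1pr1, the oxysterol receptor Gpr183 and Selplg did not pass.

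The SLAM family moved in both directions. Of 13 measured genes of the SLAM receptors and SAP adaptors, the 2 receptors Slamf6 and Slamf1 and the adaptor Sh2d1a included, 2 rose and 1 fell against eTreg, and 3 rose and 1 fell against e_iTreg. Of all probe sets, 9.99% passed against eTreg and 11.2% against e_iTreg. In the RefSeq annotation Ly9, Slamf7, Cd48, Slamf1, Cd84 and Slamf6 follow each other in this order on chromosome 1, with 1 other protein-coding gene between Cd48 and Slamf1. Cd48, the ligand of CD244, read 12.12, 11.83, 11.97 and 12.06 in iTreg, 10.93, 11.40, 11.33 and 11.05 in e_iTreg, and 11.504, 11.33, 11.28 and 11.69 in eTreg. It rose by 0.54 ± 0.13 relative to eTreg (adjusted p = 0.0131) and by 0.82 ± 0.13 relative to e_iTreg (adjusted p = 0.00148).

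Cd84, a self-binding receptor that supports the contact of follicular T cells with B cells, went the other way. It read 9.36, 9.48, 9.69 and 9.40 in iTreg, 9.96, 9.88, 10.12 and 9.92 in e_iTreg, and 10.10, 10.14, 9.96 and 10.23 in eTreg. All iTreg arrays were below all others, as for 7.82% of all probe sets against eTreg and 9% against e_iTreg. The differences were -0.63 ± 0.10 against eTreg (adjusted p = 0.00195) and -0.49 ± 0.10 against e_iTreg (adjusted p = 0.00681). Ly9 (-0.06) and the kinase Fyn (-0.19) did not pass against eTreg. Cd48 did not pass against eTreg without the 3 B-cell-marker-poor arrays (0.58, adjusted p = 0.0755), where Cd84 did (-0.64, adjusted p = 0.0392).

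Of 13 measured genes of gp130 and IL-21 receptor signalling, 4 fell (4.63% of all probe sets) and none rose (5.36%) in iTreg relative to eTreg, with a median of -0.19. Besides Il6st these were Il6ra, the ligand-binding chain of the IL-6 receptor, Il27ra (-0.37 ± 0.10) and the kinase Jak1 (-0.31 ± 0.09). Il6ra read 10.25, 10.17, 10.64 and 10.30 in iTreg, 11.02, 10.91, 11.32 and 11.04 in e_iTreg, and 10.91, 11.15, 11.10 and 11.003 in eTreg. The iTreg arrays were below all others, as for 7.82% of all probe sets against eTreg and 9% against e_iTreg. The differences were -0.70 ± 0.12 against eTreg (adjusted p = 0.0024) and -0.73 ± 0.12 against e_iTreg (adjusted p = 0.00197). Against e_iTreg 2 of the list fell, Il6st and Il6ra, while Il27ra (-0.23 ± 0.10, adjusted p = 0.14) and Jak1 (-0.25 ± 0.09, adjusted p = 0.0985) did not pass. Stat3 was at -0.19 and Il21r at -0.24 against eTreg, neither past the threshold. Without the 3 B-cell-marker-poor arrays none of the 13 passed against eTreg, with Il6ra at -0.69 (adjusted p = 0.0546), and without iTreg replicate 4, 2 did.

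Of the 5 measured genes of the TOX and achaete-scute families, Tox, Tox2 and Ascl2 included, none passed between iTreg and eTreg and 1, Tox, passed between iTreg and e_iTreg. Tox4 and Tox3 were at -0.05 and -0.14 between iTreg and eTreg.

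**Figure D4:**
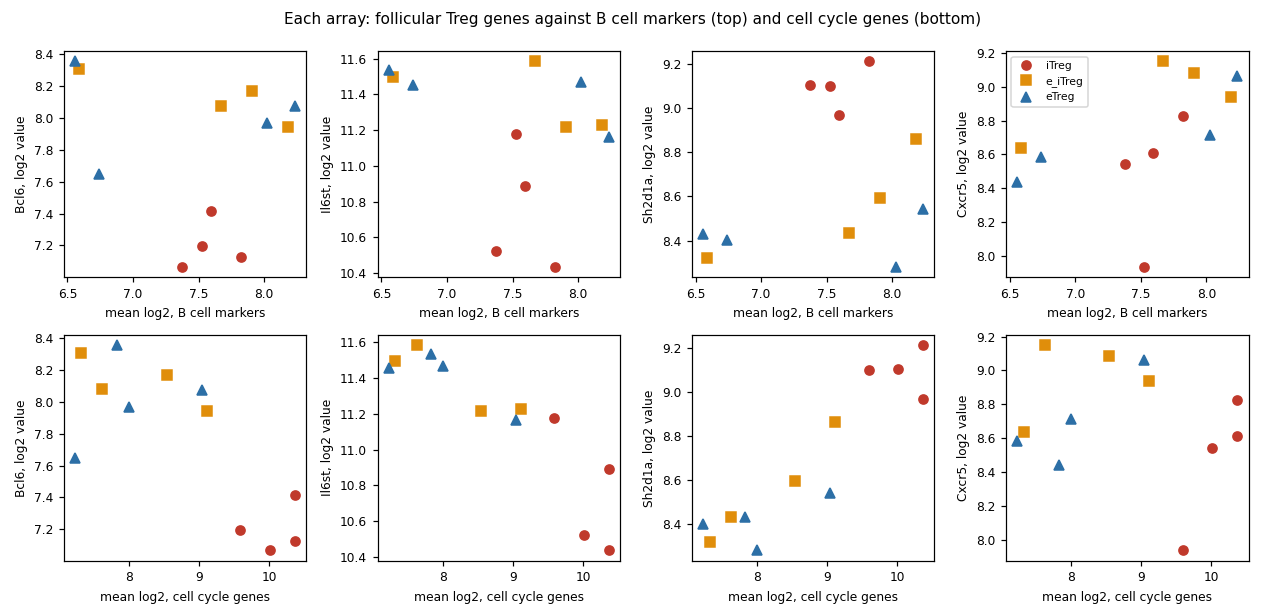
Log2 value of Bcl6, Il6st, Sh2d1a and Cxcr5 (vertical axes) in each of the 12 arrays against the mean log2 value of B cell markers (top) and of cell cycle genes (bottom). The iTreg arrays share the B cell marker range of the other groups and lie at 9.59 and above in cell cycle genes, where no other array lies.

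The profiles most like that of Bcl6 were found by the root mean square difference of log2 values over the 12 arrays, each gene centred on its own mean, among 13477 probe sets with a mean above log2 6, predicted gene models left out. They were Mef2d, a MEF2 transcription factor (0.122), Smox, spermine oxidase (0.127), Ldlrad4, an inhibitor of TGF-beta signalling (0.137), Zfp36l1, an mRNA decay factor (0.146), and Med13l, a Mediator subunit (0.149), where the median of all candidates was 0.462. In iTreg and eTreg they averaged 10.42 and 11.30 for Mef2d, 7.16 and 7.85 for Smox, 9.37 and 10.19 for Ldlrad4, 11.31 and 12.21 for Zfp36l1, and 9.48 and 10.14 for Med13l. Since they were chosen for likeness over these same arrays, their lower level in iTreg (differences of -0.90 to -0.66 against eTreg) and their order within eTreg, highest in replicate 3 and lowest in replicate 4 as for Bcl6, describe that choice and are no separate observation.

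**Figure D5:**
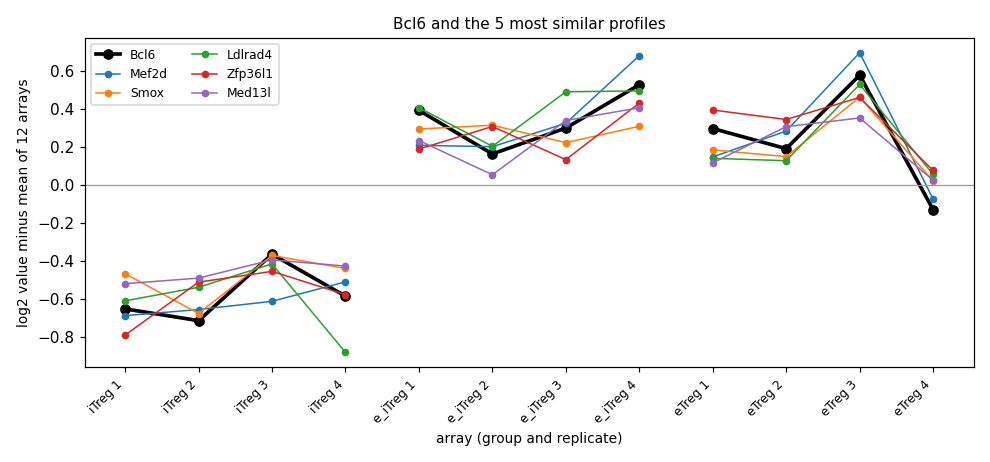
Log2 value minus the gene's mean over 12 arrays (vertical axis) in each array (horizontal axis) for Bcl6 (thick black line) and the 5 genes with the smallest root mean square difference from it. All 6 lines lie below 0 in the iTreg arrays, and within eTreg they peak in replicate 3 and are lowest in replicate 4, as the choice by likeness favours.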

How the data were processed

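Splenic Treg of 12 samples were profiled on Affymetrix arrays. Each array took 2 ng of RNA after whole-transcript amplification, per the labels. The deposited values are log2 expression values per probe set, made by the authors with oligo and RMA, per the submitters' processing notes (background correction, normalization between arrays, summary of probes). No version, setting or genome build is given in the sources used here.

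Of 41345 rows, 23521 carried exactly 1 symbol, and 23328 of these had a gene number in RefSeq (GRCm38.p6), used for names. All 23521 were fitted together as 3 groups (R 4.3.3, limma 3.58.1, with lmFit and eBayes, two-sided, Benjamini-Hochberg over all rows, threshold 0.05). In lists, the probe set with the highest mean stood for a gene. The fit was tested on simulated data.

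The members, lists and tests were chosen with earlier results of these data known. Named were all members, up to 6 genes of each list by smallest p against eTreg, any gene needed to finish a count of at most 5, the 5 profiles nearest to Bcl6 and Foxp3, Prdm1, Icos, Pdcd1 and Cd4. One further gene of the rule is not reported here. Il2ra, Il2rb, Ly9, Tox3, Tox4, S1pr1, Gpr183, Selplg, Stat3, Il21r, Fyn and Cd3e, where outside that rule, were named after their values were seen. Slamf6, Slamf1, Sh2d1a, Il6st, Tox, Tox2 and Ascl2 are also in lists, and Prdm1, Stat3 and Il21r are in more than 1 list. The replicates are biological per the series design, the number of arrays limits the precision, and no pair of arrays was identical. Promoter sequences came from RefSeq, and their motifs were chosen after the results were known.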

Additional observations from a re-analysis of the deposited data

How the results depend on the processing

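The alternatives were other scalings, filters, error models and thresholds, covariates, a fit of each pair of groups by itself, a block for the replicate number and each array left out. Over the 29 alternatives, Bcl6 passed in all but 1 against eTreg (-0.93 to -0.70) and all but 1 against e_iTreg (-0.99 to -0.83), the exception being the cell cycle covariate, and Sh2d1a in 28 and 25. No probe set of the members passed in e_iTreg minus eTreg in any alternative. Il21 and Ascl2 have no value under either filter, nor has the second Slamf6 probe set with 1 probe set per gene.

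Members past the threshold against eTreg numbered 3, and 0 with the cell cycle covariate. Against e_iTreg they numbered 5, with 3 on all rows, 3 with only the 2 groups compared, 2 at a fold of at least 1.5, 1 without the 3 B-cell-marker-poor arrays, 0 with the cell cycle covariate and 1 with Xist minus Y-linked genes as covariate. With 1 array left out they numbered 2 to 4 against eTreg and 2 to 6 against e_iTreg. Of all probe sets 2349 passed against eTreg, with 1089 at a fold of 1.5, 400 without the 3 arrays, 11 with the cell cycle covariate and 1487 to 2437 with 1 array left out. Against e_iTreg 2643 passed, with 1121, 1356, 27 and 1616 to 2852 in the same settings and 972 with the sex-linked covariate. The count fell by over 1.5 times without eTreg replicate 2 (1547) or 3 (1487) against eTreg, and without iTreg replicate 1 (1730) or e_iTreg replicate 3 (1747) or 4 (1616) against e_iTreg. The causes were not tested. Fewer samples entered each setting that left out arrays or compared only 2 groups, and more rows entered the fit of all rows.

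Small differences that did not pass changed sign. Tox2 against eTreg was 0.0198 under quantile normalization, 0.0216 under median centring and 0.0199 with array weights. In e_iTreg minus eTreg, Slamf1 was -0.0212 with median centring and -0.0304 with the sex-linked covariate, and Il6st was 0.00797, 0.0285, 0.00574 and 0.0293 with the B cell covariate, without the 3 arrays, with the cell cycle covariate and with the sex-linked one. With the cell cycle covariate the second Slamf6 probe set was at -0.0577 and Ascl2 at 0.20 against eTreg, and Ascl2 at 0.24 against e_iTreg. With 1 array left out, ranges spanned 0 in e_iTreg minus eTreg for Bcl6 (-0.00948 to 0.226), Ascl2 (-0.14 to 0.0378), Il6st (-0.104 to 0.0316) and Slamf1 (-0.0252 to 0.105), and against eTreg for Tox2 (-0.0415 to 0.0571) and the second Slamf6 probe set (-0.0431 to 0.314).

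Replicate numbers are shared between groups, but deviations of same-numbered arrays correlated by over 0.1 in 3 of 12 pairs (-0.152 to 0.238), and 3 of 12 arrays correlated best with their own number, so the numbers were not taken as pairs. With the replicate block 4 members passed against eTreg (Il21 in addition, 0.65, adjusted p = 0.0474) and 5 against e_iTreg (Cxcr5 in addition, -0.47, adjusted p = 0.0416, and Slamf6 lost, adjusted p = 0.0579), and 2225 and 2394 of all probe sets.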

Other observations

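Within iTreg, the 2 arrays high in Il21, replicates 1 and 3 (6.82 and 6.60), were also the highest of their group in Pdcd1 (8.81 and 9.02), Cxcr5 (8.83 and 8.61) and the cell cycle mean (10.37 and 10.37). Il21 was at 5.48 in replicate 2 and 5.37 in replicate 4, with Pdcd1 at 8.34 and 8.27. Il4 did not split this way, at 6.69, 5.71, 6.77 and 6.55 in replicates 1 to 4. These values were picked after they were seen, in 4 arrays, and no test was run on them.

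None of the 33 sets of 4 arrays (11 probe sets in 3 groups) had an array further from the others than Dixon's 95% critical value allows.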
